A study of Mus musculus with 12 samples.

Results

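The loss of Med1 was measured over both lobes of the mouse prostate at once. For each gene, the difference between Med1 knock out and wild type in the ventral lobe was averaged with the same difference in the lateral lobe, so the comparison used all 12 of the study's 12 arrays. It was made for 18194 genes, each read by its brightest probe set. A gene passed at an adjusted p under 0.05, taken from a limma model with Benjamini-Hochberg adjustment over all of these genes. In this lobe-averaged comparison 1024 genes (5.63%) passed, 491 higher (2.70%) and 533 lower (2.93%) in the knockout. A stricter set of 111 genes (0.610%) passed in each lobe on its own with the same direction, 72 higher (0.396%) and 39 lower (0.214%), and most of the values below belong to it. Its largest rises were those of Emb, H2bc18 and B4galnt2, its largest falls those of Elf5 and Pnliprp1, and 7 interferon-response genes were among the falls.

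The 4 groups were wild-type ventral prostate, Med1 knock out ventral prostate, wild-type lateral prostate and Med1 knock out lateral prostate, all from mice aged 16 weeks, with 3 arrays each. Total RNA was purified on RNeasy columns, labelled with biotin by a NuGEN Encore kit and read on single-colour Affymetrix arrays. The values are log2 RMA signals, so levels and differences are given in log2 units, a difference of 1 is a 2-fold change, and a positive difference means more signal in the knockout. The sources used here do not give the deleted stretch of Med1, the promoter or Cre that directed the deletion, or the strain. Nothing in the labels states that a group's arrays are of separate mice, or that the ventral and lateral array of one number share a mouse. The spread behind each p-value is thus the spread between these samples, and it may be technical. Each array reads a whole lobe, in which fewer cells of a type and less RNA per cell cannot be told apart.

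MED1 is a subunit of Mediator, the large complex that carries signals from DNA-bound transcription factors to RNA polymerase II. It holds the motifs through which many nuclear receptors, the androgen receptor among them, contact the complex, and it is best known as their coactivator. The ventral and lateral lobes of the rodent prostate are separate glands of androgen-dependent secretory epithelium in a muscular stroma, and each makes its own mixture of secreted proteins.

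Med1 itself gave 9.48, 9.52 and 9.29 on the wild-type and 8.90, 8.99 and 8.68 on the knockout arrays of the ventral lobe, and 8.58, 8.75 and 8.23 against 8.40, 8.34 and 8.44 in the lateral lobe. Every knockout array lay below every wild-type array in the ventral lobe, while in the lateral lobe the groups overlapped. The difference was -0.57 (SE 0.12, adjusted p = 0.0119) in the ventral and -0.13 (SE 0.12, adjusted p = 0.622) in the lateral lobe, and -0.35 (SE 0.09, adjusted p = 0.0328) over both, a call that was lost in 9 of the 12 fits that leave out 1 array (adjusted p up to 0.0805). The lobes' effects did not differ past the threshold (adjusted p = 0.136). Of the 7 probe sets annotated to Med1 this was the brightest. All 7 had a negative ventral difference, while in the lateral lobe 4 had a positive one, from 0.09 to 0.44. The set with the lowest p differed by -0.64 and -0.26, and by -0.45 on average (adjusted p = 0.00386 over all probe sets). Where the probes lie relative to the deleted part is not given, so these levels are only a partial check of the genotype. The prostate genes Pbsn (12.1 to 13.6) and Hoxb13 (10.9 to 12.3) and the keratins of luminal cells Krt8 (11.6 to 12.5) and Krt18 (12.49 to 12.95) were bright on all 12 arrays. Arrays of one group correlated at 0.992 to 0.996 over genes. Value distributions differed between the lobes, which may have been normalized apart, so levels are set side by side across lobes only as a description. In the 6 seminal vesicle secretory genes measured, replicate 3 of 2 groups stood apart: the wild-type ventral array averaged 5.52 against 3.81 and 3.89 for the other two, and the knockout lateral array 7.73 against 9.26 and 9.09. Without both arrays, 635 genes passed in the lobe-averaged comparison and 64 in both lobes with the same direction. All 111 genes of the stricter set passed the lobe-averaged test. They also kept their direction in each lobe, which is fixed in advance for a gene whose wild-type and knockout arrays do not overlap.

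Mostly different genes passed in the 2 lobes. In the ventral lobe 1652 genes passed (9.08%), 1069 higher (5.88%) and 583 lower (3.20%). In the lateral lobe 916 passed (5.03%), 294 higher (1.62%) and 622 lower (3.42%). The difference between the lobes' own knockout effects passed for 1693 genes (9.31%). No array enters both lobes' differences. All 12 arrays share 1 estimate of the spread, however, so the calls in the 2 lobes are not independent. With each lobe fitted alone, 89 genes were called in both lobes in the same direction, 52 higher and 37 lower. Genes called in both lobes in opposite directions numbered 150 (0.824%), more than the 111 called in the same direction, and 141 of them were higher in the ventral and lower in the lateral lobe while 9 ran the other way. Leaving out 1 array moved some of these counts by over 1.5 times. The ventral count was 1033, 941 and 1086 without wild-type replicate 1, wild-type replicate 3 or knockout replicate 3 of that lobe, and the lateral count 588, 499 and 513 without wild-type replicate 2, wild-type replicate 3 or knockout replicate 2. The lobe difference passed for 1103 genes without wild-type lateral replicate 3. Opposite calls came to 92, 98 and 73 without wild-type lateral replicates 1, 2 and 3, and to 73 and 98 without knockout lateral replicates 2 and 3. The shared count stayed between 74 and 110 over the 12 such fits. The plot of each gene's effect in one lobe against the other shows the shared genes in the upper right and lower left corners.

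**Figure D1:**
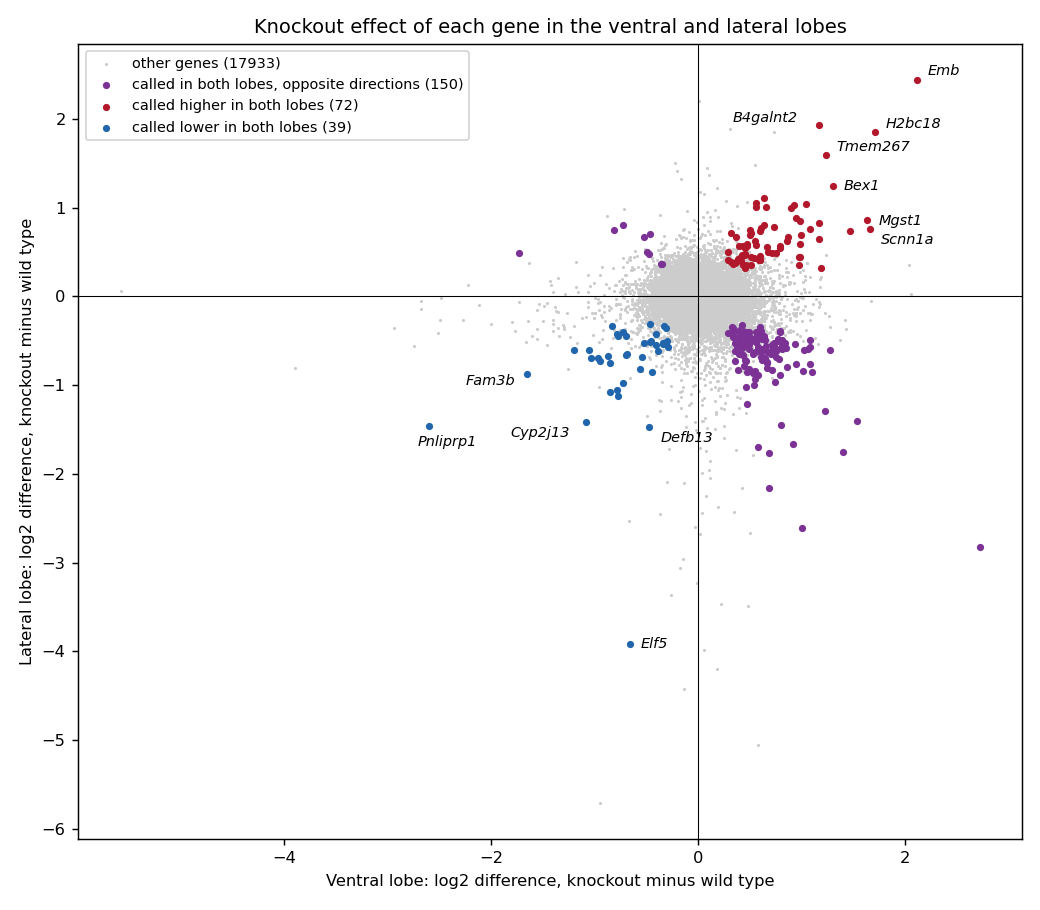
Each point is 1 of 18194 genes, placed by its log2 difference, knockout minus wild type, in the ventral lobe (horizontal) and the lateral lobe (vertical), each from 3 arrays against 3. The 72 genes called higher in both lobes (red) run out to Emb at 2.12 and 2.44, the 39 called lower in both (blue) to Pnliprp1 at -2.60 and -1.46 and Elf5 at -0.66 and -3.92, and the 150 called in opposite directions (purple) lie mostly at lower right.

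The share of one lobe's calls found again in the other depends on how many genes each lobe called. Of the genes higher in the ventral lobe, 6.74% were also called higher in the lateral lobe and 13.2% lower (1.62% and 3.42% of all genes). The same 72 genes are 24.5% of those higher in the lateral lobe, of which 3.06% were called lower ventrally (5.88% and 3.20% of all genes). For falls, 6.69% of the ventral genes were also called lower laterally (3.42% of all genes). Of the lateral falls, 6.27% were called lower ventrally (3.20%). The ventral falls were called higher laterally for 1.54% (1.62%), and the lateral falls higher ventrally for 22.7% (5.88%). Without regard to calls, 35.9% of the genes higher in the ventral lobe had a positive difference in the lateral lobe, against 60.5% in the reverse direction. Over all genes, 7977 of 18194 (43.8%) had the same sign in both lobes, and the effects had a Pearson correlation of -0.06 and a Spearman correlation of -0.12 across genes, which are not independent replicates.

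Array by array, without a model, 722 genes (3.97%) had all knockout arrays on the same side of all wild-type arrays in each lobe, 313 above (1.72%) and 409 below (2.25%), against 1021 (5.61%) that separated in each lobe but in opposite directions. All 72 genes called higher in both lobes separated in this way, as did 38 of the 39 called lower, Prelid2 being the exception in the ventral lobe.

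A lobe-averaged call does not by itself mean that both lobes took part. Of the 491 genes higher on average, 72 (14.7%) passed in each lobe, 264 (53.8%) in the ventral lobe alone, 92 (18.7%) in the lateral lobe alone and 61 (12.4%) in neither, with 2 called in opposite directions. Of the 533 lower, 39 (7.32%) passed in each lobe, 225 (42.2%) ventrally alone, 201 (37.7%) laterally alone and 62 (11.6%) in neither, with 6 called in opposite directions. The sign was the same in each lobe for 418 (85.1%) of the higher and 431 (80.9%) of the lower genes, and the lobes' effects differed for 157 (32.0%) and 232 (43.5%). Of the genes that passed only on average, 34 of the 61 higher and 45 of the 62 lower ones separated array by array in each lobe.

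The 111 shared genes were chosen by a threshold in each lobe, which bears on how alike their effects are in size. The 72 rises had a median of 0.60 ventrally and 0.58 laterally, and the 39 falls had medians of -0.69 and -0.61. The lateral difference was the larger one for 37 of the 72 and 22 of the 39. Their lobe difference passed for 7 of the rises (Mgst1, Scnn1a, Npnt, Dpp4, Gstt1, Ifnar2 and Amotl2, all larger in the ventral lobe) and 6 of the falls, of which Elf5 and Defb13 fell more in the lateral and Pnliprp1, Fam3b, Col6a3 and Apof more in the ventral lobe. A 2-fold change or more in each lobe was reached by 6 rises, Emb, H2bc18, B4galnt2, Tmem267, Bex1 and Ppp1r3c, and by 2 falls, Pnliprp1 and Cyp2j13. RMA values carry no detection calls, so a difference is called a lower bound where 1 of its group means was below the lower quartile of signals in its lobe (4.73 ventral, 4.52 lateral). When the larger p of the lobes was adjusted over all genes, 34 genes passed. Low signal touched 8 shared genes: Cpn1, Gucy1b1, Nxf7 and Pnliprp1 in the ventral lobe, Gdpd2 and Gm16316 in the lateral lobe, and Arsj and Obp2a in both.

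**Figure D2:**
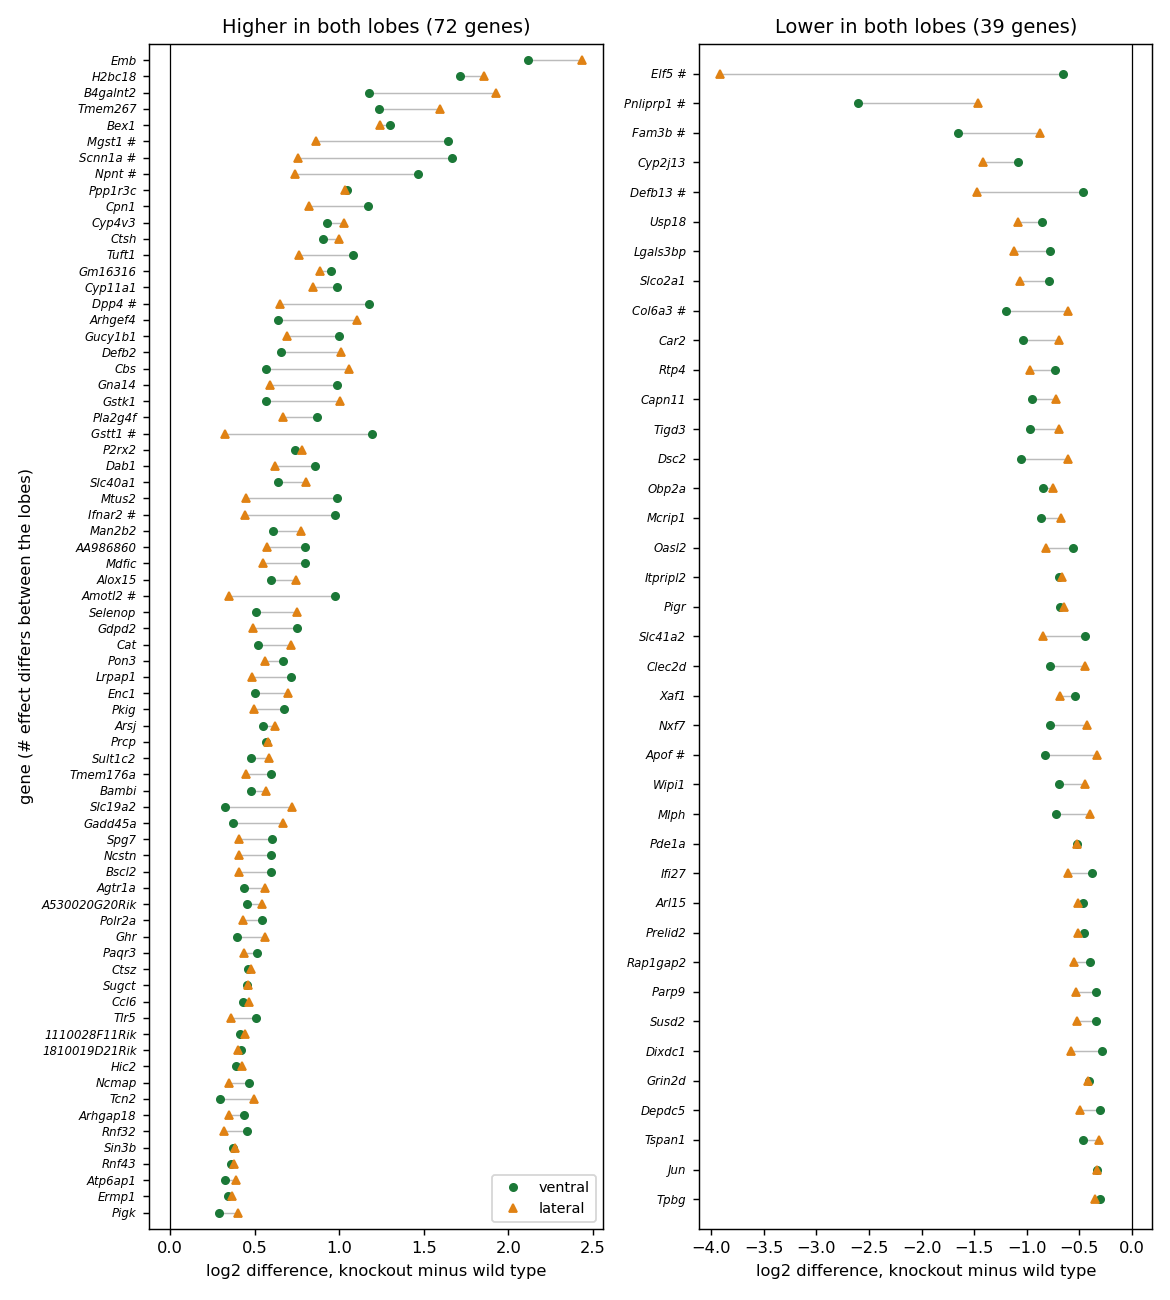
The log2 difference, knockout minus wild type, is drawn for each of the 111 shared genes in the ventral (green circles) and lateral lobe (orange triangles), with # where the lobes' effects differed. The 2 symbols lie close together for most genes, and the widest gap is that of Elf5, at -0.66 and -3.92.

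The largest shared rise was that of Emb, which encodes embigin, a membrane glycoprotein that accompanies monocarboxylate transporters to the cell surface. Emb gave 7.47, 7.90 and 7.71 on the wild-type and 9.80, 9.92 and 9.71 on the knockout arrays of the ventral lobe, and 7.59, 7.34 and 6.75 against 9.82, 9.55 and 9.62 in the lateral lobe. Both lobes started from a similar level and reached a similar one, and no knockout array came near a wild-type array. The rise was 2.12 (SE 0.17, adjusted p = 8.33e-06) in the ventral and 2.44 (SE 0.17, adjusted p = 1.09e-06) in the lateral lobe. A further Emb probe set rose by 2.19 and 1.92, and the third, which was dim, differed by 0.27 and 0.40 without passing. The list of monocarboxylate transporters and their partners, Emb among them, had 8 genes measured. In the ventral lobe 4 were called higher and 1 lower (background 5.88% and 3.20%). In the lateral lobe 1 was higher and 1 lower (1.62% and 3.42%), and 1 gene was called in opposite directions. Slc16a7, a lactate and pyruvate transporter, fell by 0.39 on average (adjusted p = 0.00704), with -0.42 and -0.36 in the ventral and lateral lobe (adjusted p = 0.0274 and 0.0750).

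H2bc18, a histone H2B gene, read 5.26, 6.42 and 5.31 on the wild-type and 7.11, 7.47 and 7.55 on the knockout arrays of the ventral lobe, and 5.13, 5.25 and 4.34 against 6.63, 7.28 and 6.37 in the lateral lobe. One wild-type ventral array lay about midway between its group and the knockout, and the groups still did not overlap. Its rise was 1.71 (SE 0.31, adjusted p = 0.00373) in the ventral and 1.86 (SE 0.31, adjusted p = 0.00270) in the lateral lobe. No other gene of the 13 measured histone genes passed the lobe-averaged test, which 5.63% of all genes passed. B4galnt2, the glycosyltransferase that adds the last sugar of the Sda blood group antigen, read 10.05, 9.88 and 10.25 on the wild-type and 11.12, 11.21 and 11.39 on the knockout arrays of the ventral lobe, and 8.84, 8.55 and 8.16 against 10.78, 10.17 and 10.38 in the lateral lobe. It was higher in the ventral lobe in both genotypes, and the knockout lateral arrays reached about the level of the wild-type ventral ones. Its rise was 1.18 (SE 0.17, adjusted p = 0.000922) in the ventral and 1.93 (SE 0.17, adjusted p = 1.61e-05) in the lateral lobe, and 2 of its 3 other probe sets rose alike. Among 40 measured glycosyltransferases of mucin-type and terminal chains, 2 were higher and 5 lower on average (background 2.70% and 2.93%). B4galnt2 was the one called in both lobes in the same direction (background 0.610%).

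Bex1, a small adaptor protein gene of the X chromosome, read 9.25, 9.33 and 9.20 on the wild-type and 10.32, 10.46 and 10.91 on the knockout arrays of the ventral lobe, and 8.62, 8.57 and 8.55 against 9.75, 9.81 and 9.90 in the lateral lobe. The knockout arrays stood well clear of the wild type in both lobes, and the differences were 1.30 (SE 0.12, adjusted p = 2.63e-05) in the ventral and 1.24 (SE 0.12, adjusted p = 3.71e-05) in the lateral lobe. Its family did not move with it: of 5 Bex genes measured, a family looked up after the values were seen, Bex4 rose by 1.54 in the ventral and fell by 1.40 in the lateral lobe, and Bex2 was lower in the lateral lobe. Tmem267, a transmembrane protein gene, rose by 1.24 (SE 0.27, adjusted p = 0.0118) in the ventral and 1.60 (SE 0.27, adjusted p = 0.00287) in the lateral lobe. Ppp1r3c, which targets protein phosphatase 1 to glycogen, read 8.14, 7.93 and 8.09 on the wild-type and 9.14, 8.86 and 9.29 on the knockout arrays of the ventral lobe, and 7.77, 7.40 and 7.58 against 8.71, 8.54 and 8.61 in the lateral lobe. Its rise was the same to 2 digits in each lobe, 1.04 (adjusted p = 0.000133) and 1.04 (adjusted p = 0.000133), with no overlap.

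**Figure D3:**
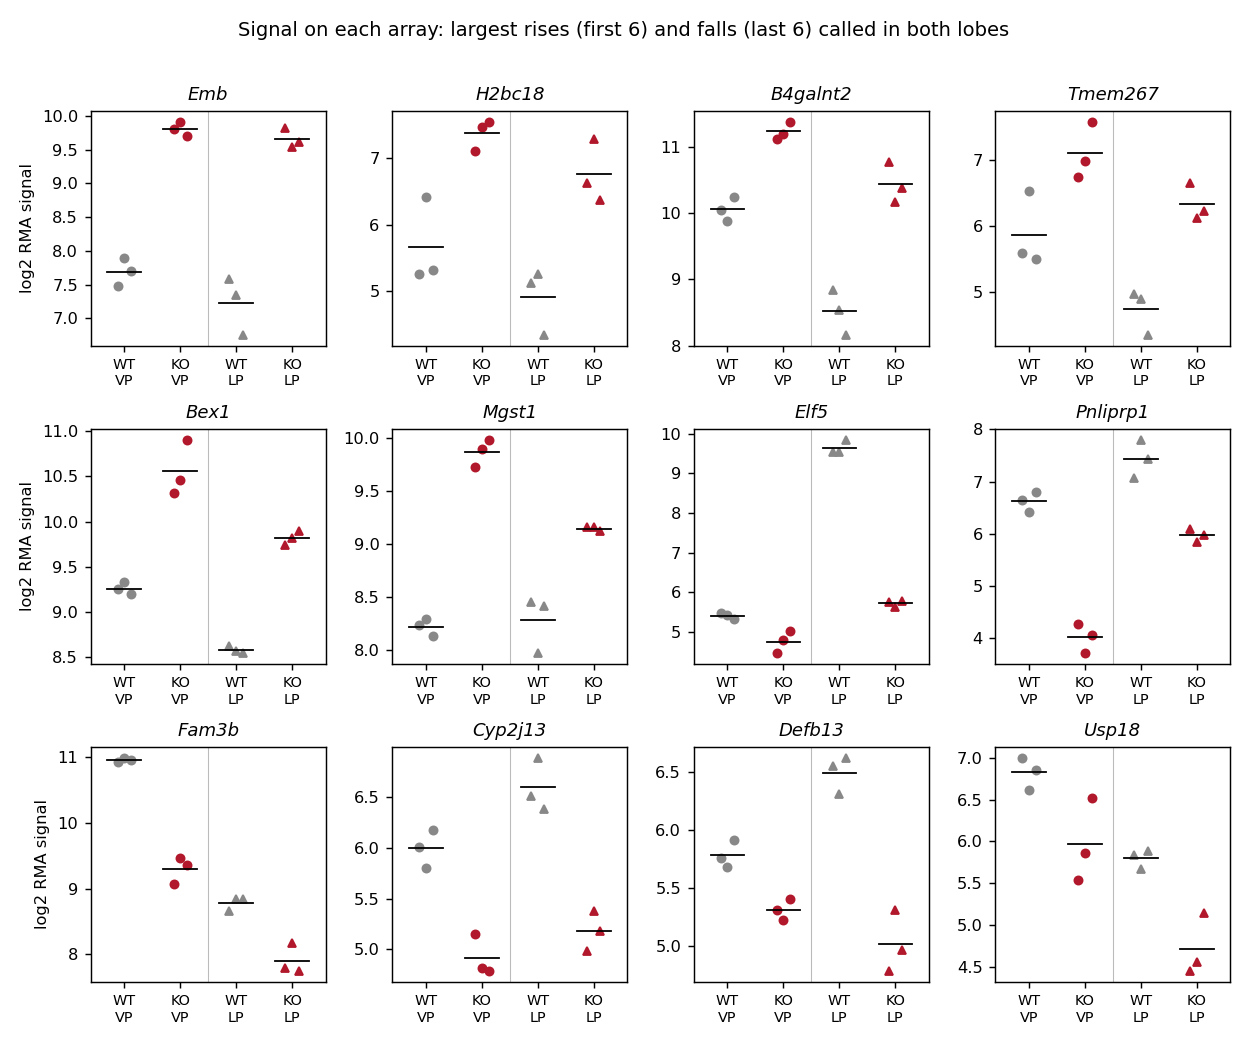
Each panel shows the log2 signal of 1 gene on the 12 arrays (grey wild type, red knockout, circles ventral, triangles lateral, bars group means), with separate vertical scales, for the 6 largest shared rises and 6 largest shared falls by lobe-averaged difference. Knockout and wild-type arrays do not overlap in either lobe for any of the 12 genes, although H2bc18, Tmem267 and Usp18 each have 1 ventral array close to the other genotype.

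Enzymes that handle glutathione, hydrogen peroxide and sulfur amino acids were among the shared rises. Mgst1, the microsomal glutathione transferase, read 8.24, 8.29 and 8.14 on the wild-type and 9.72, 9.89 and 9.98 on the knockout arrays of the ventral lobe, and 8.46, 7.98 and 8.42 against 9.16, 9.16 and 9.12 in the lateral lobe. The wild-type lobes were level and the ventral knockout arrays the highest. The rise of 1.64 (SE 0.12, adjusted p = 2.97e-06) in the ventral and 0.86 (SE 0.12, adjusted p = 0.000575) in the lateral lobe was larger in the ventral lobe (difference between lobes -0.78, adjusted p = 0.0101). Gstk1, a mitochondrial and peroxisomal glutathione transferase, went from 11.05 ± 0.13 to 11.61 ± 0.25 in ventral and from 8.67 ± 0.06 to 9.68 ± 0.01 in lateral prostate (mean ± SD, n = 3), and Gstt1, a transferase of the theta class, from 9.16 ± 0.11 to 10.35 ± 0.08 in ventral and from 8.43 ± 0.06 to 8.75 ± 0.08 in lateral prostate. Their rises were 0.56 and 1.01 for Gstk1 (adjusted p = 0.00682 and 9.52e-05) and 1.20 and 0.32 for Gstt1 (adjusted p = 2.97e-06 and 0.0474). Catalase, Cat, rose by 0.52 and 0.72, the transsulfuration enzyme Cbs by 0.57 and 1.06, the lactonase Pon3 by 0.67 and 0.56 and the selenium carrier Selenop by 0.51 and 0.75.

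These families were drawn up after the values were seen. Of 23 glutathione transferases measured, 4 were higher and 1, Gsta3, was lower on average and 3 rose in both lobes, where 2.70% of all genes were higher, 2.93% lower and 0.396% higher in both. Their median difference was -0.06, against -0.01 for all genes. Gstm5 and Gstm7 rose in the ventral and fell in the lateral lobe. Of 31 other antioxidant enzymes, 5 were higher and 1, Gpx8, lower, 4 rose in both lobes, and the median was 0.03, with Cth and Sod3 called in opposite directions. 

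Lysosomal enzymes were again listed after the values were seen. The list holds 5 of the shared rises, so its counts are a description and not a test. Of 30 cathepsins, glycosidases and other lysosomal proteins, 12 were higher and none lower on average (background 2.70% and 2.93%). In the ventral lobe 9 were called higher and none lower (5.88% and 3.20%). In the lateral lobe 8 were called higher and 1, Ctsk, lower (1.62% and 3.42%), by -0.49 (adjusted p = 0.0431). A positive difference in each lobe was seen for 18 and a negative one for 1. The ventral and lateral medians were 0.19 and 0.14 against -0.020 and -0.0025 for all genes. Ctsh, which encodes the cysteine protease cathepsin H, read 9.90, 9.88 and 10.04 on the wild-type and 10.91, 10.87 and 10.74 on the knockout arrays of the ventral lobe, and 8.73, 8.86 and 8.75 against 9.86, 9.68 and 9.80 in the lateral lobe. The groups were far apart in both lobes, with differences of 0.90 (SE 0.09, adjusted p = 2.91e-05) in the ventral and 1.001 (SE 0.09, adjusted p = 1.1e-05) in the lateral lobe. The shared set also held Ctsz, cathepsin Z (0.46 and 0.48), the mannosidase Man2b2 (0.61 and 0.77), the carboxypeptidase Prcp (0.57 and 0.58) and Atp6ap1, an accessory subunit of the proton pump (0.32 and 0.39).

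Several transporters, channels and receptors, grouped after the values were seen, were among the rises. Scnn1a, the alpha subunit of the epithelial sodium channel, read 6.70, 6.96 and 7.07 on the wild-type and 8.48, 8.45 and 8.80 on the knockout arrays of the ventral lobe, and 5.42, 5.76 and 5.71 against 6.47, 6.35 and 6.35 in the lateral lobe. The ventral knockout arrays were the highest of the 12, and no groups overlapped. Its rise was 1.67 (SE 0.13, adjusted p = 3.94e-06) in the ventral and 0.76 (SE 0.13, adjusted p = 0.00239) in the lateral lobe, larger in the ventral lobe (difference -0.91, adjusted p = 0.00579). All 3 subunits measured had a positive difference in each lobe, and Scnn1a alone passed the lobe-averaged test. The iron exporter ferroportin, Slc40a1, rose by 0.64 and 0.80, the thiamine transporter Slc19a2 by 0.33 and 0.72 and the ATP-gated channel P2rx2 by 0.74 and 0.78. Receptors that rose in both lobes were the growth hormone receptor Ghr (0.40 and 0.56), the angiotensin receptor Agtr1a (0.43 and 0.56), the flagellin receptor Tlr5 (0.51 and 0.36) and Ifnar2, a chain of the type I interferon receptor (0.97 and 0.44). Signalling genes included the G protein subunit Gna14 (0.99 and 0.59), Gucy1b1 of the soluble guanylate cyclase (at least 1.001 and 0.69), the BMP pseudoreceptor Bambi (0.48 and 0.57) and Rnf43, a ubiquitin ligase that removes Wnt receptors (0.36 and 0.38).

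Further rises included the following genes. Cyp11a1, which performs the first step of steroid hormone synthesis, read 8.07, 7.75 and 7.83 on the wild-type and 9.01, 9.05 and 8.56 on the knockout arrays of the ventral lobe, and 5.10, 5.29 and 5.10 against 5.85, 6.10 and 6.07 in the lateral lobe. The lateral knockout arrays stayed below the ventral wild-type arrays, and the groups were apart within each lobe. It rose by 0.99 (SE 0.13, adjusted p = 0.000410) in the ventral and 0.84 (SE 0.13, adjusted p = 0.00167) in the lateral lobe, and its 2 other, dimmer probe sets did not pass. Npnt, an integrin-binding matrix protein, rose by 1.47 (SE 0.13, adjusted p = 2.37e-05) in the ventral and 0.74 (SE 0.13, adjusted p = 0.00505) in the lateral lobe. Dpp4, a dipeptidase of the luminal surface, went from 9.11 ± 0.17 to 10.28 ± 0.09 in ventral and from 9.68 ± 0.09 to 10.33 ± 0.10 in lateral prostate (mean ± SD, n = 3), a rise of 1.17 and 0.65. Cyp4v3, a fatty acid hydroxylase, rose by 0.93 and 1.03, Cpn1, the catalytic subunit of carboxypeptidase N, by 1.17 and 0.82 (the ventral value a lower bound), and Tuft1, tuftelin, by 1.08 and 0.76. Polr2a, the largest subunit of RNA polymerase II, rose by 0.54 (adjusted p = 0.00198) and 0.43 (adjusted p = 0.0122). Of the 33 Mediator subunits measured, Med1 alone passed on average (background 5.63%), and their median difference was -0.03.

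The largest shared fall on average was that of Elf5, an ETS transcription factor of glandular epithelium. Elf5 gave 5.49, 5.42 and 5.34 on the wild-type and 4.47, 4.79 and 5.01 on the knockout arrays of the ventral lobe, and 9.55, 9.53 and 9.85 against 5.76, 5.64 and 5.77 in the lateral lobe. It was bright in the wild-type lateral lobe only, and the lateral knockout arrays came down to near the ventral level. The ventral level was itself lower in the knockout without overlap, but its knockout arrays lay near the low-signal limit of 4.73. The difference was -0.66 (SE 0.13, adjusted p = 0.00582) in the ventral and -3.92 (SE 0.13, adjusted p = 3.02e-10) in the lateral lobe, and the lobes differed by -3.26 (adjusted p = 2.17e-07). The other Elf5 probe set fell by 3.27 in the lateral lobe and differed by -0.19 in the ventral lobe (adjusted p = 0.522 over all probe sets), so the ventral fall rests on 1 probe set.

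Pnliprp1, a lipase-related protein gene, gave 6.66, 6.42 and 6.80 on the wild-type and 4.28, 3.72 and 4.06 on the knockout arrays of the ventral lobe, and 7.08, 7.81 and 7.43 against 6.10, 5.85 and 5.98 in the lateral lobe. All knockout arrays were lower, and those of the ventral lobe were in the low-signal range. It fell by 2.60 (SE 0.17, adjusted p = 1.68e-06), a lower bound, and by 1.46 (SE 0.17, adjusted p = 0.000166). Fam3b, a secreted cytokine-like protein, gave 10.91, 10.98 and 10.95 on the wild-type and 9.07, 9.46 and 9.36 on the knockout arrays of the ventral lobe, and 8.66, 8.83 and 8.84 against 7.79, 8.17 and 7.75 in the lateral lobe. The wild-type ventral arrays were the highest, and both lobes separated by genotype, with differences of -1.65 (SE 0.12, adjusted p = 3.69e-06) in the ventral and -0.88 (SE 0.12, adjusted p = 0.000683) in the lateral lobe. Cyp2j13, a cytochrome P450, changed by -1.08 (SE 0.15, adjusted p = 0.000552) in the ventral and -1.42 (SE 0.15, adjusted p = 6.12e-05) in the lateral lobe. The beta-defensin Defb13 fell by 0.47 and 1.47 (adjusted p = 0.0365 and 1.1e-05), while another defensin, Defb2, rose by 0.66 and 1.01.

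Further falls are grouped here after their values were seen. Slco2a1, which carries prostaglandins into cells, read 7.52, 7.35 and 8.12 on the wild-type and 6.91, 6.79 and 6.94 on the knockout arrays of the ventral lobe, and 8.43, 8.69 and 8.66 against 7.45, 7.63 and 7.52 in the lateral lobe. Knockout arrays were below wild-type arrays in each lobe, with differences of -0.79 (SE 0.16, adjusted p = 0.00674) in the ventral and -1.06 (SE 0.16, adjusted p = 0.000998) in the lateral lobe, and of its 3 other probe sets 1 passed in both lobes. Carbonic anhydrase 2, Car2, went from 8.27 ± 0.19 to 7.24 ± 0.24 in ventral and from 10.52 ± 0.10 to 9.82 ± 0.18 in lateral prostate (mean ± SD, n = 3), differences of -1.03 and -0.69. Dsc2, a cadherin of desmosomes, fell by 1.06 and 0.60 (adjusted p = 0.00114 and 0.0474), but its other probe set differed by -0.91 and -0.03. Pigr, which carries antibodies across epithelia, fell by 0.68 and 0.64, the magnesium transporter Slc41a2 by 0.44 and 0.85, and the odorant-binding lipocalin Obp2a by 0.85 and 0.75, lower bounds. Capn11, a calpain protease, and Tigd3, a gene derived from a transposon, changed by -0.95 and -0.72 and by -0.97 and -0.70. Jun, a subunit of the transcription factor AP-1, fell by 0.33 in each lobe (adjusted p = 0.0282 and 0.0388). Its other probe set differed by 0.002 ventrally (adjusted p = 0.993 over all probe sets) and by -0.83 laterally, so the ventral fall rests on 1 probe set. Jun was called in both lobes in 1 of the 12 fits that leave out 1 array.

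Col6a3, a chain of collagen VI, was lower in both lobes, with 9.23, 9.33 and 9.13 on the wild-type and 8.09, 7.99 and 8.04 on the knockout arrays of the ventral lobe, and 7.72, 7.46 and 7.74 against 7.25, 6.88 and 6.98 in the lateral lobe. No arrays overlapped between genotypes within a lobe, and the difference was -1.19 (SE 0.11, adjusted p = 2.37e-05) in the ventral and -0.60 (SE 0.11, adjusted p = 0.00481) in the lateral lobe. Of 20 fibroblast and matrix markers, 14 rose and 1 fell in the ventral lobe (background 5.88% and 3.20%) while 7 fell and none rose in the lateral lobe (3.42% and 1.62%), and Col6a3 was the one called in both lobes in the same direction; Col6a1, of the same collagen, went 0.44 and -0.56. The list's mean level per array was 8.48 to 8.67 in wild-type and 8.87 to 9.01 in knockout ventral prostate, and 8.70 to 8.78 and 8.24 to 8.49 in lateral prostate.

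Interferon-response genes were the list with the most shared falls. These genes are induced by interferons and encode viral sensors and antiviral proteins. Of 47 measured, 20 were lower and 1 higher on average (background 2.93% lower and 2.70% higher). In the ventral lobe 18 were lower and 2 higher (background 3.20% and 5.88%), and in the lateral lobe 11 were lower and none higher (3.42% and 1.62%). A negative difference in each lobe was seen for 31 and a positive one for 5, against 4409 and 3568 of all 18194 genes. Knockout arrays lay wholly below wild-type arrays in each lobe for 15 genes and above for 1 (background 2.25% and 1.72%). Called lower in both lobes (background 0.214%) were 7: Usp18, Lgals3bp, Rtp4, Oasl2, Xaf1, Ifi27 and Parp9.

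Usp18, which takes the ubiquitin-like ISG15 off proteins, gave 6.999, 6.62 and 6.86 on the wild-type and 5.54, 5.86 and 6.52 on the knockout arrays of the ventral lobe, and 5.84, 5.67 and 5.89 against 4.45, 4.56 and 5.14 in the lateral lobe. One knockout ventral array lay just under the wild-type range, and the lateral arrays were further apart. It fell by 0.85 (SE 0.22, adjusted p = 0.0260) and 1.08 (SE 0.22, adjusted p = 0.0101). Lgals3bp, a secreted galectin ligand, gave 10.88, 10.74 and 10.76 on the wild-type and 10.03, 10.17 and 9.85 on the knockout arrays of the ventral lobe, and 9.14, 9.37 and 9.21 against 8.08, 8.21 and 8.07 in the lateral lobe. Its knockout arrays were all lower in each lobe, with a wide gap. Its differences were -0.78 (SE 0.10, adjusted p = 0.000282) in the ventral and -1.12 (SE 0.10, adjusted p = 1.24e-05) in the lateral lobe. Rtp4, an interferon-induced chaperone of membrane receptors, gave 8.64, 8.42 and 8.48 on the wild-type and 7.65, 7.63 and 8.09 on the knockout arrays of the ventral lobe, and 6.995, 6.70 and 6.68 against 6.17, 5.73 and 5.57 in the lateral lobe. Each lobe separated by genotype, with differences of -0.73 (SE 0.16, adjusted p = 0.0113) in the ventral and -0.97 (SE 0.16, adjusted p = 0.00218) in the lateral lobe. The other Rtp4 probe set differed by -0.40 and -0.08 (adjusted p = 0.0303 and 0.727 over all probe sets), so the lateral fall rests on 1 probe set.

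Oasl2, of the oligoadenylate synthetase family, went from 8.26 ± 0.18 to 7.70 ± 0.21 in ventral and from 7.35 ± 0.18 to 6.53 ± 0.27 in lateral prostate (mean ± SD, n = 3), Xaf1, a factor bound to apoptosis inhibitors, from 7.85 ± 0.14 to 7.31 ± 0.08 in ventral and from 7.36 ± 0.26 to 6.67 ± 0.11 in lateral prostate, and the mitochondrial protein Ifi27 from 10.83 ± 0.04 to 10.45 ± 0.00310 in ventral and from 9.47 ± 0.10 to 8.86 ± 0.13 in lateral prostate. Their differences in the ventral and lateral lobe were -0.56 and -0.82 for Oasl2, -0.54 and -0.68 for Xaf1 and -0.38 and -0.61 for Ifi27, and -0.34 and -0.53 for Parp9, of the ADP-ribosyltransferase family. The other Ifi27 probe set differed by -0.75 and -0.51 (adjusted p = 0.0141 and 0.109 over all probe sets). The other Xaf1 set, which was dim, differed by 0.24 and 0.08 without passing. No lobe difference passed for any of the 7, and it passed for 6 of the 47 genes. Split by role, the 15 factors and sensors had 7 lower and 1 higher on average and medians of -0.26 and -0.20 in the ventral and lateral lobe, and the 32 effectors 13 lower and none higher with -0.33 and -0.27, against -0.020 and -0.0025 for all genes. Irf7, the factor that amplifies interferon production, was -0.70 (adjusted p = 0.000746) and -0.36 (adjusted p = 0.0563). Nlrc5, the activator of class I antigen presentation genes, was -0.36 and -1.17 (adjusted p = 0.186 and 0.000524). None of the 12 class I presentation genes measured passed in limma on average or in either lobe. At an unadjusted p under 0.05, 1 was higher and none lower in each of these. Of all genes 5.63% passed on average, 9.08% ventrally and 5.03% laterally, so 12 genes are too few to set this apart from the background. Tlr3, the sensor of double-stranded RNA, was the one that rose on average, by 0.41 (adjusted p = 0.000564), with 0.65 and 0.18 in the lobes.

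**Figure D4:**
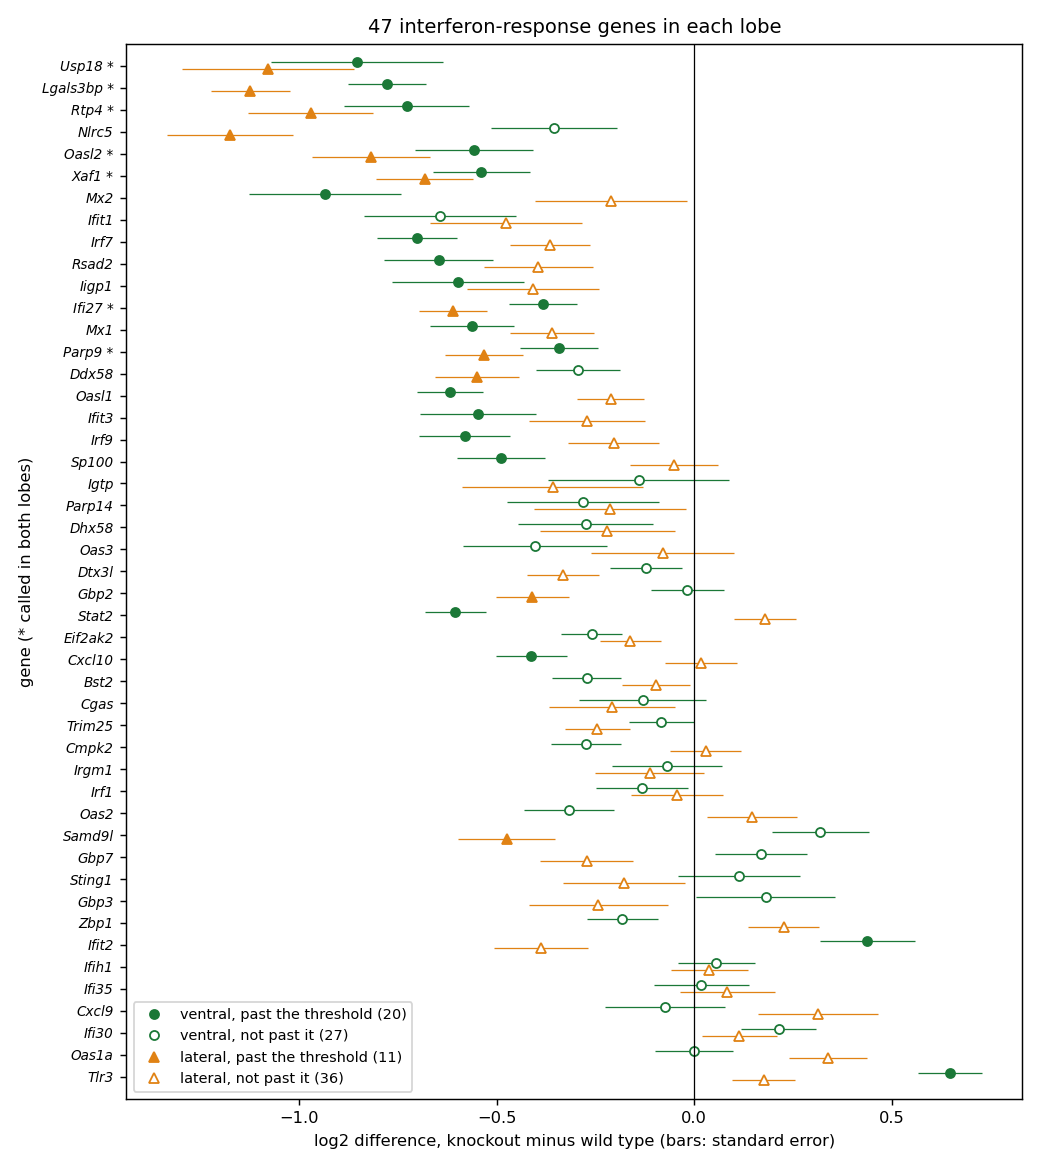
The log2 difference, knockout minus wild type, of 47 interferon-response genes is shown with its standard error for the ventral (green circles) and lateral lobe (orange triangles), filled where it passed in that lobe, in the order of the lobe-averaged difference. Most symbols lie left of 0 in both lobes, the 7 genes marked * passed in both, and Tlr3 stands at the other end.

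Some leukocyte markers were lower on average as well. Of 24 measured, 4 (Cd52, Cd74, H2-Ab1 and H2-Eb1) were lower on average and none higher (background 2.93% and 2.70%). In the ventral lobe none was called lower and 1 higher (background 3.20% and 5.88%). In the lateral lobe 4 were lower and none higher (3.42% and 1.62%), and none was called lower in both lobes (0.214%). A negative difference in each lobe was seen for 12 and a positive one for none, against 4409 and 3568 of all 18194 genes. Their medians were -0.15 and -0.23 in the ventral and lateral lobe. Their mean level per array ranged from 7.13 to 7.26 in wild-type and 7.03 to 7.16 in knockout ventral prostate, and from 6.62 to 6.69 and 6.46 to 6.52 in lateral prostate. The pan-leukocyte gene Ptprc was 6.63 to 6.86 and 6.32 to 6.90 in the ventral groups and 4.69 to 5.36 and 4.51 to 5.14 in the lateral groups, where it lay near the low-signal range and overlapped between genotypes. The interferon effectors ranged from 7.78 to 7.91 in wild-type and 7.47 to 7.64 in knockout ventral prostate, and from 6.67 to 6.76 and 6.40 to 6.43 in lateral prostate. RMA has no value of 0, so no marker could be called absent. The part of leukocytes in the interferon result was not tested.

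The upstream sequences of some of these genes are printed because many interferon-response genes carry a response element, GAAA followed by any 2 bases and a second GAAA, in this region. It was searched on both strands in RefSeq promoter windows of assembly GRCm38.p6, 250 bases before to 50 after an annotated start, and where it lies on the other strand it reads TTTC, 2 bases and TTTC. Of all 32851 windows 3.44% hold it, against 16 of 39 (41%) for the measured interferon genes with an entry and 6 of 13 (46.2%) for those lower on average. Below, each sequence is the 250 bases before the start, 5′ to 3′ on the gene's strand, with matches in capitals. The first 4 genes hold a match: Ifit1 at chr19:34640639-34640888 (plus strand), Ifit3 at chr19:34583279-34583528 (plus), Rsad2 at chr12:26456453-26456702 (minus) and Stat2 at chr10:128270248-128270497 (plus). The last 3 passed in both lobes and hold none in this window: Oasl2 at chr5:114896684-114896933 (plus), Xaf1 at chr11:72301379-72301628 (plus) and Lgals3bp at chr11:118401960-118402209 (minus).
Ifit1: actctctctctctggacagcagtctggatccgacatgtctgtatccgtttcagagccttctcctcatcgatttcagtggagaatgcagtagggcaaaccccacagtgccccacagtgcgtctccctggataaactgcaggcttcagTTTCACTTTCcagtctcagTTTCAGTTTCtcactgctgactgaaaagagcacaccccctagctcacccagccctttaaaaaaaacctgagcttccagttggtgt
Ifit3: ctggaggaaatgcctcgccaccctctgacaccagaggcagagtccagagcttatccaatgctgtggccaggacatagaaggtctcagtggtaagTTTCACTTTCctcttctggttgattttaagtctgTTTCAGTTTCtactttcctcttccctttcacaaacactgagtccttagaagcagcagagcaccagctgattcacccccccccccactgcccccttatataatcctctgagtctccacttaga
Rsad2: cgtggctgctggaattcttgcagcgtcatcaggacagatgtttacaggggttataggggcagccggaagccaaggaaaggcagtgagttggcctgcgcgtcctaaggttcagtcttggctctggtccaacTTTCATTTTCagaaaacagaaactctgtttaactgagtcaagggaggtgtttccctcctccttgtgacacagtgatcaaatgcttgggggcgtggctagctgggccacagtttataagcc
Stat2: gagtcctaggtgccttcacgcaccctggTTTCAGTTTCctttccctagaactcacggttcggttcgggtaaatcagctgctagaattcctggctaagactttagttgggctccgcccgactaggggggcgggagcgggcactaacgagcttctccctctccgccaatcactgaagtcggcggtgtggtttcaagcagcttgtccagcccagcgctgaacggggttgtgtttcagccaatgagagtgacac
Oasl2: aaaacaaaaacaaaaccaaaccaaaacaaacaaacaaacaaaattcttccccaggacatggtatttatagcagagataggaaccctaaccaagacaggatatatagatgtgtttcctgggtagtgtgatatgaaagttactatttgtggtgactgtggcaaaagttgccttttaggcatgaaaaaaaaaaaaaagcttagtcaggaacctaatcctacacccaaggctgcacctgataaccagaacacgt
Xaf1: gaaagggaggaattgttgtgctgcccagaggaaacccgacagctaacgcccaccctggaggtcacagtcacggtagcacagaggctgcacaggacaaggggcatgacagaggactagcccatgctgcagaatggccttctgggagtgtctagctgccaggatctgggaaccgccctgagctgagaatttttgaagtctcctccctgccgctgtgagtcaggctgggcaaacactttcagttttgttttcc
Lgals3bp: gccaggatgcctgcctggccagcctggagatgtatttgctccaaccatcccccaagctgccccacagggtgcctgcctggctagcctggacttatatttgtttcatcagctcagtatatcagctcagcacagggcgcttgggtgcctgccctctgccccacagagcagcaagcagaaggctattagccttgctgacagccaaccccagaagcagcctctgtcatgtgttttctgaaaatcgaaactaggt

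Counted from its first base back to the start, a match began 104 and 85 bases upstream in Ifit1, 156 and 122 in Ifit3, 120 in Rsad2 and 222 in Stat2. Ifit1 and Ifit3, which bind viral RNA, differed by -0.64 and -0.48 and by -0.55 and -0.27 in the ventral and lateral lobe, and Rsad2, the antiviral enzyme viperin, by -0.65 and -0.39. Each passed on average, and of the lobes Ifit3 and Rsad2 passed in the ventral one. Stat2, a signal carrier from the interferon receptor, fell by 0.60 in the ventral lobe (adjusted p = 0.000289), differed by 0.18 in the lateral lobe, and its lobes differed (adjusted p = 0.000578). None of the 4 printed genes with a match passed in both lobes, and the 3 shared genes printed lack these letters in this window. The other 4 shared genes, Usp18, Rtp4, Ifi27 and Parp9, are named only. Over the whole shared set, 5 of 75 windows of the rises (6.67%) and 1 of 41 of the falls (2.44%) held the response element, against 3.03% of the windows of all tested genes. The androgen receptor half-site AGAACA was in 16% and 19.5% of these windows against 14.7% for tested genes and 19% of all windows. The nuclear receptor half-site AGGTCA was in 18.7% and 14.6% against 14.3% and 16.3%. No one of these motifs contains another, and 57 of the 72 and 29 of the 39 genes had an entry. A match describes letters and shows no binding.

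Of 16 prostate secretory genes measured, 7 were lower and none higher on average, and the lobe difference passed for 7, against backgrounds of 2.93%, 2.70% and 9.31%. Called lower in both lobes (background 0.214%) was Apof, apolipoprotein F, at -0.83 and -0.33 (adjusted p = 6.19e-05 and 0.0441). Pbsn, probasin, the classical androgen-dependent secretory gene, was -1.28 in the ventral lobe (adjusted p = 1.72e-06) and 0.02 in the lateral lobe, where knockout and wild-type arrays overlapped. Tgm4, the transglutaminase of seminal coagulation, was -2.48 and -0.02, and the protease Mmp7 -2.12 and -0.10. Of 33 androgen-response genes, 6 were lower and none higher on average, and none passed in both lobes. Of 33 nuclear receptors and coregulators, 1 was higher and 5 lower, none in both lobes: Ppargc1a, a coactivator of mitochondrial genes, was 0.45 on average (adjusted p = 0.0174), and the lipid sensor Ppard -0.34 (adjusted p = 0.0228). Luminal epithelium markers were close between genotypes, with 2 of 15 higher (Dpp4 and Epcam) and mean levels of 11.2 in wild-type and 11.1 to 11.3 in knockout ventral arrays and 10.6 to 10.7 in both lateral groups.

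Large averages could also come from 1 lobe. Cyp4a12a, a fatty acid hydroxylase, was -3.32 on average, from -5.70 in the lateral lobe (adjusted p = 5.54e-07) and -0.94 in the ventral lobe (adjusted p = 0.122), a larger average than any shared gene. Pate14 (-5.58 and 0.06) and the mucin-like Smgc (-3.90 and -0.81) fell in the ventral lobe, and the defensin Defb42 (-0.13 and -4.43) and the plasminogen activator Plau (0.58 and -5.05) in the lateral lobe. Among rises, Plscr2, a scramblase (2.07 and 0.03), and Tmem45b (2.05 and 0.35) passed in the ventral lobe, and the thyroxine carrier Ttr (0.73 and 1.85), Atp13a4, a membrane transport ATPase (0.31 and 1.89), and Wfdc6a, of the protease inhibitor family (0.01 and 2.20), in the lateral lobe. The lobe difference passed for each of these 10 genes except Ttr (adjusted p = 0.0537).

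Averaging hid opposite changes. Gsdmc2, a gasdermin, read 4.39, 5.18 and 4.55 on the wild-type and 7.66, 7.24 and 7.39 on the knockout arrays of the ventral lobe, and 6.30, 6.64 and 6.15 against 2.58, 4.13 and 3.90 in the lateral lobe. The knockout was the high group in the ventral and the low group in the lateral lobe, and the average was -0.05 (adjusted p = 0.935). The esterase Ces1d (1.40 and -1.75) and the prostaglandin synthase Ptgds (1.01 and -2.61) also rose in the ventral and fell in the lateral lobe. The muscle myosin Myh4 (-1.73 and 0.49), Chodl, a lectin-like membrane protein (-0.81 and 0.75), the kallikrein Klk1b24 (-0.52 and 0.67) and Erdr1 (-0.46 and 0.70) ran the other way. Smooth muscle markers did this as a list: of 15, 10 rose in the ventral lobe (background 5.88%) and 8 fell in the lateral lobe (3.42%). Of these markers 5 were called in opposite directions (0.824%), and the medians were 0.43 and -0.50. None passed on average in limma (background 5.63%), with 2 higher and 2 lower at an unadjusted p under 0.05. Their mean level went from 9.68 to 9.94 across wild-type and 10.22 to 10.41 across knockout ventral arrays, and from 11.05 to 11.14 and 10.45 to 10.76 in lateral prostate. The part of the stroma in the changes of the shared genes was not tested.

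**Figure D5:**
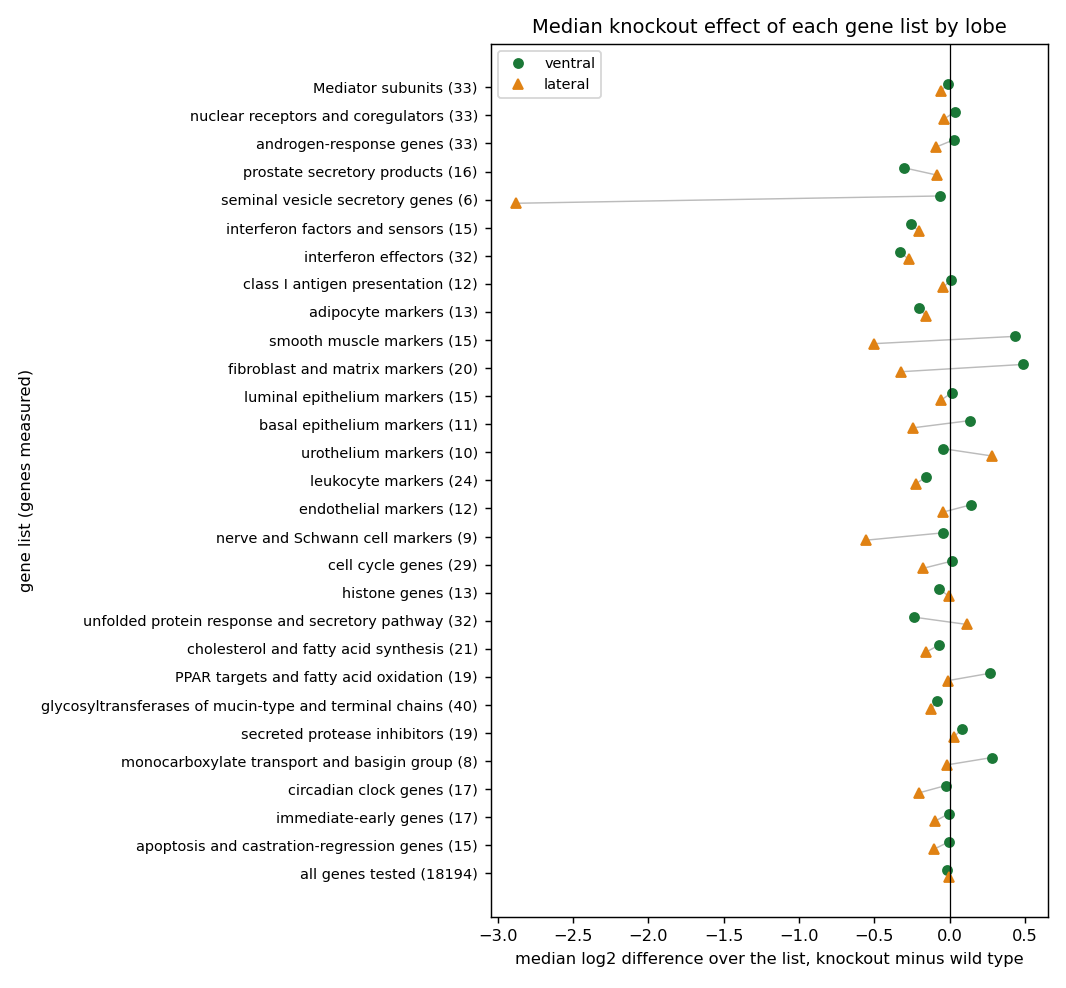
The median log2 difference, knockout minus wild type, over the measured genes of each list (number in brackets) is drawn for the ventral (green circles) and lateral lobe (orange triangles), with all 18194 genes at the bottom. Both interferon lists lie left of 0 in both lobes, smooth muscle and fibroblast lists lie on opposite sides, and the seminal vesicle list is low in the lateral lobe alone.

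Some shared genes are neighbours in the genome, with no other tested gene between them. Selenop and Ghr were both higher, Col6a3 and Mlph (melanophilin, a vesicle transport protein) both lower, and Elf5 and Cat moved in opposite directions. Pkig with Gm16316 and Rnf43 with 1110028F11Rik were both higher, and in each of these pairs the gene models overlap, so their signals may not be separate. Emb and Tmem267, both among the 6 largest rises, have 7 tested genes between them. On Med1's own chromosome lay 12 of the 111 genes (10.8%), against 8% of all tested genes that could be placed. Of the 12, 1 was within 100 tested genes of Med1, namely B4galnt2, among the largest shared rises. That window holds 200 other tested genes, of which 17 passed the lobe-averaged test, against 5.63% of all genes. Whether nearness to Med1 has a part in these changes was not tested.

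The direction of the shared set held on other probe sets more often than its calls. For 61 of the 111 genes the arrays carry 109 other probe sets: 82 had the same direction in both lobes, 23 passed in both, and none was called the other way on average. Leaving out each array in turn, all 111 genes kept their direction in both lobes. That is fixed in advance for every one but Prelid2, since their wild-type and knockout arrays do not overlap. All 111 passed on average in each of the 12 fits, which their choice as genes called in both lobes favours. Of the 72 rises 30, and of the 39 falls 12, were called in both lobes every time. Of the 15 largest rises 14 did so, all but Tmem267, and of the 15 largest falls 10, the others being Defb13, Usp18, Tigd3, Dsc2 and Obp2a. Of the 7 interferon genes 2 did, Lgals3bp and Rtp4, although the other Rtp4 probe set did not pass in the lateral lobe.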

How the data were processed

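The deposited values are log2 signals of 45101 probe sets on 12 arrays. Per the submitters' processing notes, the authors made them with Affymetrix Expression Console and RMA, which corrects background, normalizes quantiles and sums the probes of a set. The sources used here do not give their versions or the genome build. Sorted values ranged by a median of 0.0493 over the ventral, 0.0786 over the lateral and 0.388 over all arrays, so the lobes may have been normalized apart, and genotypes were compared within a lobe. Array medians were 6.39 to 6.43 in ventral and 6.05 to 6.06 in lateral prostate. The number of arrays limits the precision.

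The platform annotation gave 1 symbol to 34958 probe sets, several to 932 and none to 9211, and symbols were updated through a RefSeq table of GRCm38.p6, which matched 34754. Each of 18194 genes took its brightest probe set, of which 9012 genes had more than 1. Group means were fitted with limma 3.58.1 in R 4.3.3 (8 residual and 5.68 prior degrees of freedom), checked on simulated data, with contrasts for the average, each lobe and the lobe difference. Errors are moderated standard errors, and p-values were adjusted with Benjamini-Hochberg over all genes. The shared set, the 28 gene lists (519 of 587 genes measured) and the other members were chosen with earlier results of these data known. The text names Med1, the 15 largest shared rises and falls, 5 rises and 5 falls called in 1 lobe with the largest average, 4 and 4 genes called in opposite directions with the largest lobe difference, and up to 4 genes per list by adjusted p, with uncharacterized loci passed over; other genes were named after their values were seen. Alternatives were the replicate number as a block, other normalizations and filters, stricter thresholds, another probe set rule and leaving out arrays.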

Additional observations from a re-analysis of the deposited data

Results flagged for a closer look

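The values here are the lateral knockout effect minus the ventral one in log2 units, for genes whose lobe difference passed limma's adjusted threshold among those the naming rule picked. Shared rises with the smaller effect in the lateral lobe were Mgst1 -0.78, Scnn1a -0.91, Npnt -0.73 and Dpp4 -0.53, and outside the rule Gstt1 -0.87, Amotl2 -0.62 and Ifnar2 -0.53. Shared falls were larger in the lateral lobe for Elf5 -3.26 and Defb13 -1.004, and in the ventral lobe for Pnliprp1 1.14, Fam3b 0.78, Col6a3 0.59 and Apof 0.50.

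Genes whose average came mainly from 1 lobe differed by Tmem45b -1.70, Wfdc6a 2.19, Atp13a4 1.57 and Plscr2 -2.03 for rises, and by Cyp4a12a -4.76, Pate14 5.63, Smgc 3.09, Defb42 -4.30 and Plau -5.63 for falls. Genes called in opposite directions differed by Myh4 2.22, Chodl 1.56, Klk1b24 1.19 and Erdr1 1.16 where the lateral lobe was the higher one, and by Gsdmc2 -5.55, Ptgds -3.62, Ces1d -3.15 and Bex4 -2.94 where the ventral lobe was.

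Secretory genes that fell in the ventral lobe gave Pbsn 1.31, Mmp7 2.02 and Tgm4 2.46, and the seminal vesicle genes Svs4 and Svs5, which 2 arrays carry at levels unlike their groups, gave Svs4 -3.98 and Svs5 -3.11. Interferon genes gave Tlr3 -0.47 and Nlrc5 -0.82, and outside the rule Stat2 0.78. The adipocyte markers gave Car3 1.16 and Plin4 -0.67, the glycosyltransferases Fut2 1.01 and St6galnac4 0.98, and the transcription factors of the clock and immediate-early lists Nr1d1 -0.78 and Fosb -1.14. What sets the lobes apart in these genes was not tested.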

How the results depend on the processing

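Of 652 lobe-averaged values of the 30 leading shared genes under other settings, none changed direction or side of the lobe-averaged threshold. Their direction could not change when arrays were left out, since their wild-type and knockout arrays do not overlap. With the mean of all probe sets of a gene, 109 of the 111 shared genes kept their direction in both lobes, 105 the lobe-averaged call and 83 the call in both lobes. Of 1169 such values of 54 other named genes, 1032 kept direction and side, 137 lost the threshold and none reversed. The lobe-averaged count of 1024 became 427 with an additive model of lobe and genotype, 494 at an adjusted p under 0.01, 233 with a 1.5-fold minimum, 635 without both arrays that stand apart in seminal vesicle genes (chosen after seeing the data), and 778 to 1115 with 1 array left out. The shared count of 111 became 40 at the stricter p, 43 with the fold minimum, 34 when the larger p of the lobes was adjusted, 461 for lobe-averaged calls without overlap, 64 without both arrays, and 74 to 110 with 1 array left out. At the stricter p, with the fold minimum and without both arrays, the ventral count of 1652 became 666, 634 and 860, the lateral count of 916 became 396, 423 and 583, and opposite calls, 150, became 38, 47 and 72. With each lobe fitted alone, the ventral count was 965 and opposite calls 97. Genes whose lobes differ, 1693, became 723 at the stricter p and 973 without both arrays. With 1 array left out these counts ran from 941 to 1760 (ventral), 499 to 1168 (lateral), 73 to 163 (opposite) and 1103 to 1732 (lobes differ). Med1 kept its sign but lost the threshold at -0.35 in the additive model (adjusted p = 0.116) and -0.40 without both arrays (adjusted p = 0.0586), and ran from -0.42 to -0.29 with 1 array left out, where it was lost in 9 of 12 fits. The cause of these shifts was not tested.

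Replicate numbers recur in all groups, and same-numbered arrays deviated together only weakly (correlations -0.06 to 0.12). Whether such arrays share a mouse cannot be read from this, because each deviation is taken from the mean of a small group. With the replicate block, 93, 97 and 112 genes were shared and 968, 935 and 1041 passed on average, for a block over 12 arrays, within each lobe and as a random block. Quantile normalization of all arrays gave 551 higher and 512 lower on average and 85 and 35 shared, and centring on medians 466 and 573, and 69 and 43.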

Other observations

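The lists in this paragraph are to be read against the 2.70% of all genes that were higher and the 2.93% that were lower on average, and the 0.610% called in both lobes. Of 29 cell cycle genes, 4 were lower and none higher on average, with Top2a, the mitotic topoisomerase, at -0.43 and -0.36 in the ventral and lateral lobe and the replication helicase Mcm2 at -0.36 and -0.28, and none passed in both lobes. Of 21 genes of cholesterol and fatty acid synthesis, 4 were lower and none higher, with 14 of 21 negative in each lobe, among them the regulator Srebf2 (-0.44 and -0.23) and the sterol reductase Dhcr7 (-0.44 and -0.15). Of 17 clock genes, 1 was higher and 4 lower, and none passed in both lobes. Of 13 adipocyte markers 3 were lower, with Adipoq, adiponectin, at -1.26 and -0.82 from dim signals. Of 9 nerve and Schwann cell markers 3 were lower and none higher. Of 12 endothelial markers none passed on average in limma, and 1 was higher at an unadjusted p under 0.05.

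Probe sets without a single symbol were tested apart from the named genes. Of 10143 such sets, 11 were called higher and 8 lower in both lobes.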
